A study of Caenorhabditis elegans with 12 samples.

Results

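The ttr genes of Caenorhabditis elegans, named for a domain related to transthyretin, were examined in whole larvae at the mid L4 stage. All entries whose name is ttr followed by a number were taken, which gave 59 genes in each of 2 deposited count tables, one named U13A with 46711 entries and one named U18A with 46722. Each table held 6 RNA libraries, 3 of a let-7 mutant and 3 of its control, lettered A, B and C (the order in which values are given below) and harvested 45 h after feeding at 20 °C. For U13A the control animals were DG3913, which carry lin-41(tn1541), and the mutant animals VT3878, which carry lin-41(tn1541ma480) and let-7(ma432). For U18A the control animals were VT1367, which carry the integrated array maIs105, and the mutant animals VT3797, which carry maIs105 and let-7(ma435). Each group is thus 1 strain. U13A and U18A name substitutions at positions 13 and 18 of the let-7 microRNA. All U13A libraries carried a lin-41 allele, and the mutant a further change in it, so a U13A difference cannot be told apart from that change. The labels do not say whether libraries of a group came from separate cultures, so the p-values measure the spread between these libraries, which may be technical.

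Vertebrate transthyretin is a blood and cerebrospinal fluid protein that carries thyroid hormone and, through retinol-binding protein, vitamin A. Nematodes have a large family of small proteins with a related fold, most of them predicted to be secreted, and for most no function is known. TTR-52 is an exception: it is a secreted protein that binds phosphatidylserine on dying cells and links them to the engulfment receptor CED-1. TTR-33 protects dopaminergic neurons from oxidative stress. let-7 is a microRNA that times the passage from larval to adult fates.

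U13A libraries held 16659340 to 21414080 counts and U18A libraries 6107652 to 9607239, but protein-coding genes took between 9.80% and 20.7% of the former and between 61.4% and 67.1% of the latter. Levels were therefore compared within a table only. U13A control C stood apart, with 9.80% of its counts in protein-coding genes, against 18.3% to 20.7% in the other 5 libraries of its table. U18A mutant C also stood apart, with a chi-square against mutants A and B of 23.2 and 17.0 per degree of freedom, where A and B gave 6.73. Calls, and named estimates that moved by over 1.5 times without either library, are given with and without it.

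In the WBcel235 annotation 58 of the 59 genes are protein-coding and ttr-4 is a pseudogene. The family is spread over all 6 chromosomes, with 22 genes (37.3%) on chromosome V, which holds 25.0% of all protein-coding genes, 12 on X, 10 each on III and IV, 3 on I and 2 on II. The encoded proteins are short, with a median of 143 residues. ttr-14, at 406 residues and 9 exons, is the longest, and the family median is 3 exons. Neighbouring members lie close together: 29 genes fall into 12 clusters of 2 or 3 genes in which each gap is at most 5000 bases. Exons of 18 members overlap those of another coding gene or pseudogene, 14 of them on the opposite strand, and since no source used here says whether counting used strand, reads in the shared bases may belong to either gene. Reads of near-identical copies may be shared in the same way.

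Most members of the family were detected at mid L4, many of them at few counts. Between 52 and 57 of the 59 members had at least 1 count in each library, and ttr-4 and ttr-19 had 0 in all 12. At least 10 counts were reached by 32 to 48 members, depending on the library. Summed over the family U13A libraries held 2199 to 6004 counts and U18A libraries 4784 to 8469. Scaled to 1000000 counts in protein-coding genes, the family's share was 1302, 1358 and 1220 for the U13A controls against 1359, 1266 and 1249 for the U13A mutants. The U18A controls stood at 1115, 1149 and 1197 against 1168, 1275 and 1471 for the U18A mutants. The groups overlapped in both tables, and the highest U18A value was that of mutant C.

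Levels of single members spanned a wide range. Here a level is the CPM, the counts scaled to 1000000 of the TMM-adjusted library size, divided by the exonic length in kb. ttr-15 (T07C4.5, chromosome III, 10337847 to 10339440) had the highest level in both control strains, with 44.2 ± 2.78 in the U13A control and 144.7 ± 16.2 in the U18A control (SD, n = 3 each). That placed it at percentile 97.5 and 97.1 among protein-coding genes. Percentiles here include genes at 0 in the controls: 16649 of 19331 ranked genes were detected in the U13A controls and 17087 of 19342 in the U18A controls. ttr-51 and ttr-14 followed in both strains, at 26.7 ± 3.38 and 26.5 ± 0.511 in the U13A control and 83.1 ± 8.32 and 82.6 ± 0.340 in the U18A control (SD, n = 3 each). The second and the third member of this order did not differ beyond their spread, whereas every library of ttr-15 lay above every library of both.

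The 10 members with the highest level lay at percentiles 90.7 to 97.5 in the U13A control and 90.3 to 97.1 in the U18A control. The strains shared 9 of these 10: ttr-2, ttr-14, ttr-15, ttr-16, ttr-18, ttr-34, ttr-41, ttr-51 and ttr-53. The tenth was ttr-32 in the U13A control, at a level of 11.6 ± 1.19, and ttr-48 in the U18A control, at 41.8 ± 1.48 (SD, n = 3 each). ttr-48 came next in the U13A control at 11.5 ± 0.429, within the spread of ttr-32. The 10 most counted members took 64.8% to 68.2% of the family's counts in U13A libraries and 62.7% to 64.2% in U18A libraries.

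**Figure D1:**
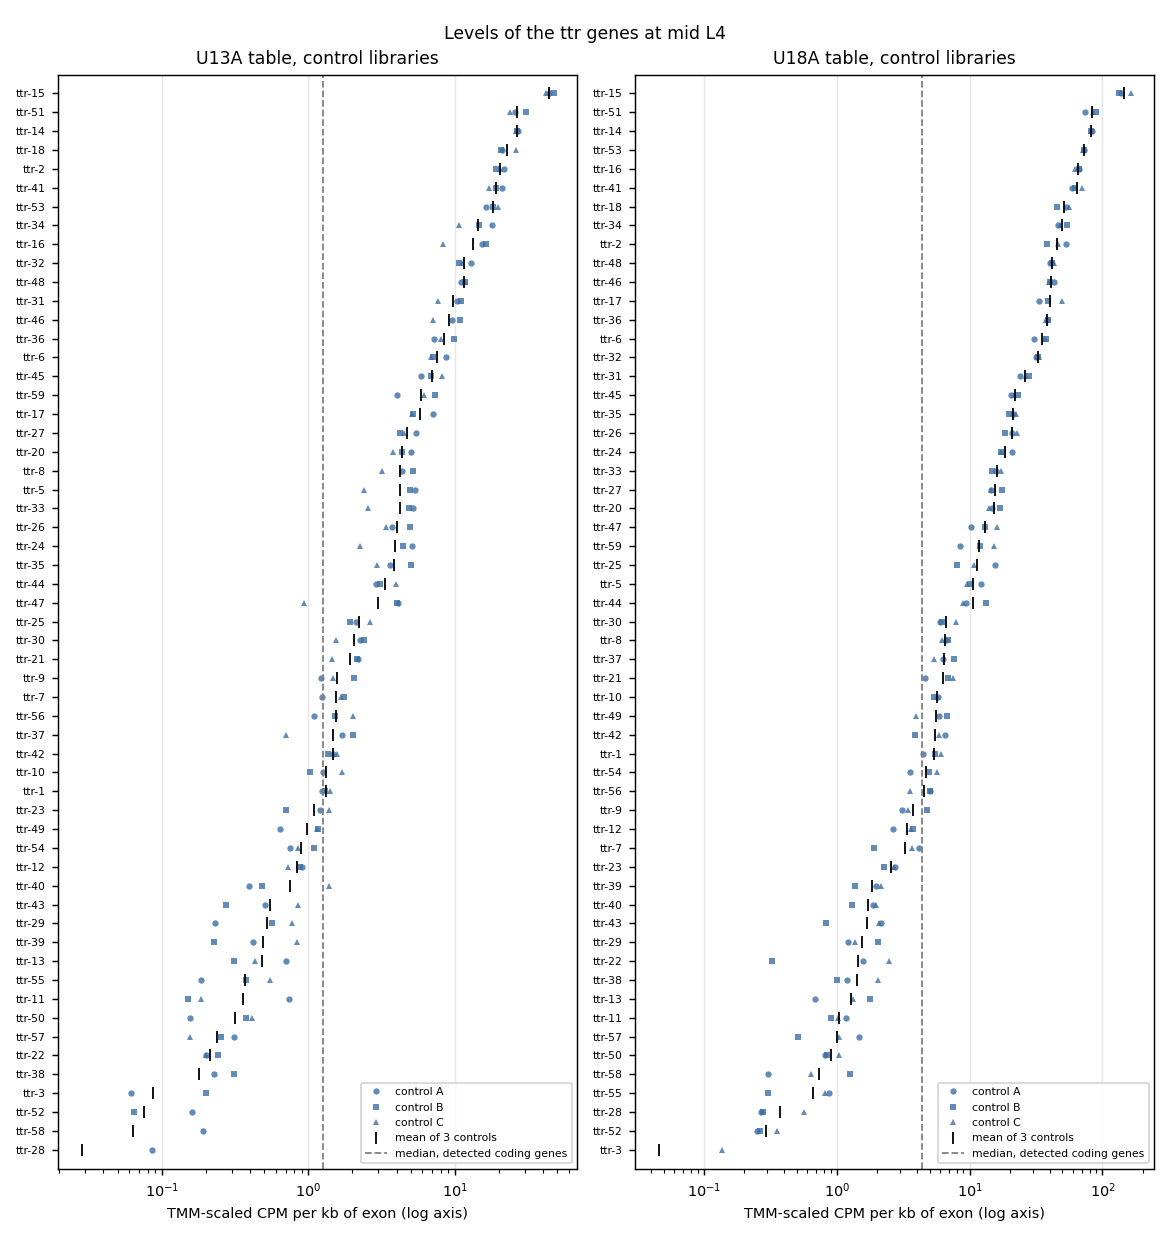
Level of each ttr gene in the control libraries of the U13A table (left) and the U18A table (right), as TMM-scaled CPM per kb of exon on a log axis. Symbols are single libraries A to C, black ticks are means of 3, the dashed line is the median of detected protein-coding genes, and libraries at 0 and genes at 0 in all 3 controls are not drawn. ttr-15 leads in both tables, and the lowest members are seen in single counts.

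The order of members was close in the strains, with a Spearman rho of 0.976 across the 59 members, which are not independent replicates and share exonic lengths. The largest shift was that of ttr-8, which ranked 21 in the U13A control and 30 in the U18A control. At the lower end, 10 members had under 10 counts in every library, among them ttr-52. For ttr-52 the U13A controls held 2, 1 and 0 counts and each mutant 0, while the U18A controls held 1, 1 and 2 and the mutants 0, 1 and 0. At these counts no difference in ttr-52 was detectable. ttr-33 lay in the middle of the family, at a level of 4.20 ± 1.43 in the U13A control and 16.0 ± 1.31 in the U18A control (SD, n = 3 each).

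Neighbours in a cluster could lie far apart in level. ttr-53 and ttr-54 lie 1267 bases apart on 1 strand of chromosome IV, and ttr-53 exceeded ttr-54 by 20.2-fold in the U13A control and 15.3-fold in the U18A control. ttr-2, flanked by ttr-1 and ttr-3 on chromosome III, had a level of 20.4 ± 1.35 in the U13A control, where ttr-1 had 1.32 ± 0.0904 and ttr-3 had at most 4 counts in any library. The cluster ttr-24, ttr-25 and ttr-26 on chromosome V was more even, with the highest member 1.81-fold above the lowest in the U13A control and 1.80-fold in the U18A control. Members in clusters had a median level of 2.22 in the U13A control and 6.70 in the U18A control, against 1.75 and 6.37 for the other members.

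In the U13A contrast, no ttr gene passed the threshold. Of the 59 members 41 had enough counts to be tested, and 0 of them had an edgeR adjusted p under 0.05, where 1.55% of all 12044 tested entries passed (0.731% higher and 0.822% lower in the mutant). DESeq2 also gave 0, and 6 members had an unadjusted p under 0.05 (14.6% of those tested, against 12.6% of all entries). A member could pass the count filter through 1 group alone, so the tested members are not a neutral sample of the family. The 18 untested members had at most 14 counts in any library.

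Among the tested members 26 log2 fold changes were above 0 and 15 below, or 63.4% above 0 against 48.6% of all tested entries. The median was 0.05, against -0.01 for all entries, and it was 0.15 without control B and 0.11 without mutant C. Every mutant library lay above every control library for 5 members (12.2%, against 9.8% of all entries) and below for 3 (7.32%, against 9.26%). The 95% interval of the log2 fold change lay within 1 of 0, for 37 of the 41 members, or 90.2%, against 80% of all entries. The exceptions were ttr-21, ttr-42, ttr-44 and ttr-47.

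The largest estimate belonged to ttr-42 (X chromosome). Its U13A controls stood at 0.708, 0.652 and 0.755 CPM against 1.81, 1.38 and 0.791 for the mutants, from 8 to 41 counts a library. Mutant C lay just above the highest control, while mutants A and B were higher. The log2 fold change was 0.95 (SE 0.33, 95% interval 0.23 to 1.66), with an edgeR adjusted p of 0.227. Without control C it was 0.98 (edgeR adjusted p 0.155), and without mutant A it was 0.63 (edgeR adjusted p 0.695). Without mutant C it was 1.21 (edgeR adjusted p 0.0905). The next largest estimates were 0.47 (SE 0.32) for ttr-47 and 0.41 (SE 0.26) for ttr-25. The ttr-47 estimate rests on control C, which had 0.472 CPM where controls A and B had 2.08 and 2.03, and it was 0.19 without that library.

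For the 10 members highest in the U13A control the log2 fold changes lay between -0.29 (ttr-14) and 0.38 (ttr-16). The ttr-16 estimate rests on control C, with 4.25 CPM where controls A and B had 7.88 and 8.44, and it was 0.18 without that library. ttr-34 moved the other way, from -0.28 to -0.43 without control C. For ttr-14 the controls stood at 38.3, 37.4 and 36.9 CPM against 30.6, 31.3 and 30.4 for the mutants. All mutants lay below all controls by a margin wider than the spread within either group, yet its log2 fold change of -0.29 (SE 0.11) had an edgeR adjusted p of 0.293. The groups of ttr-48 did not overlap either, at 6.70, 7.14 and 7.17 CPM for controls against 5.12, 5.10 and 5.32 for mutants. Its log2 fold change was -0.43 (SE 0.14, edgeR adjusted p 0.181). On the other side, ttr-2 controls stood at 10.8, 9.47 and 10.0 CPM against 13.3, 12.6 and 12.8 for mutants, again without overlap. Its estimate was 0.35 (SE 0.12, edgeR adjusted p 0.224). The lowest estimate was that of ttr-44, -0.57 (SE 0.23, edgeR adjusted p 0.312), followed by ttr-48 and then ttr-21 at -0.42 (SE 0.28). ttr-44 shares 167 of its 668 exonic bases with R11G10.3 on the opposite strand, which had 2 to 14 counts per U13A library. Partners on the opposite strand held more counts for other members named here. ttr-16 shares 209 of 514 exonic bases with lin-3 (34 to 112 counts per U13A library). ttr-47 shares 52 of 508 with H14N18.4 (259 to 476 counts per U13A library). ttr-15, the most abundant member, had 0.11 (SE 0.12), or 0.07 without control C, and ttr-33 had 0.04 (SE 0.23), or -0.15 without control C.

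**Figure D2:**
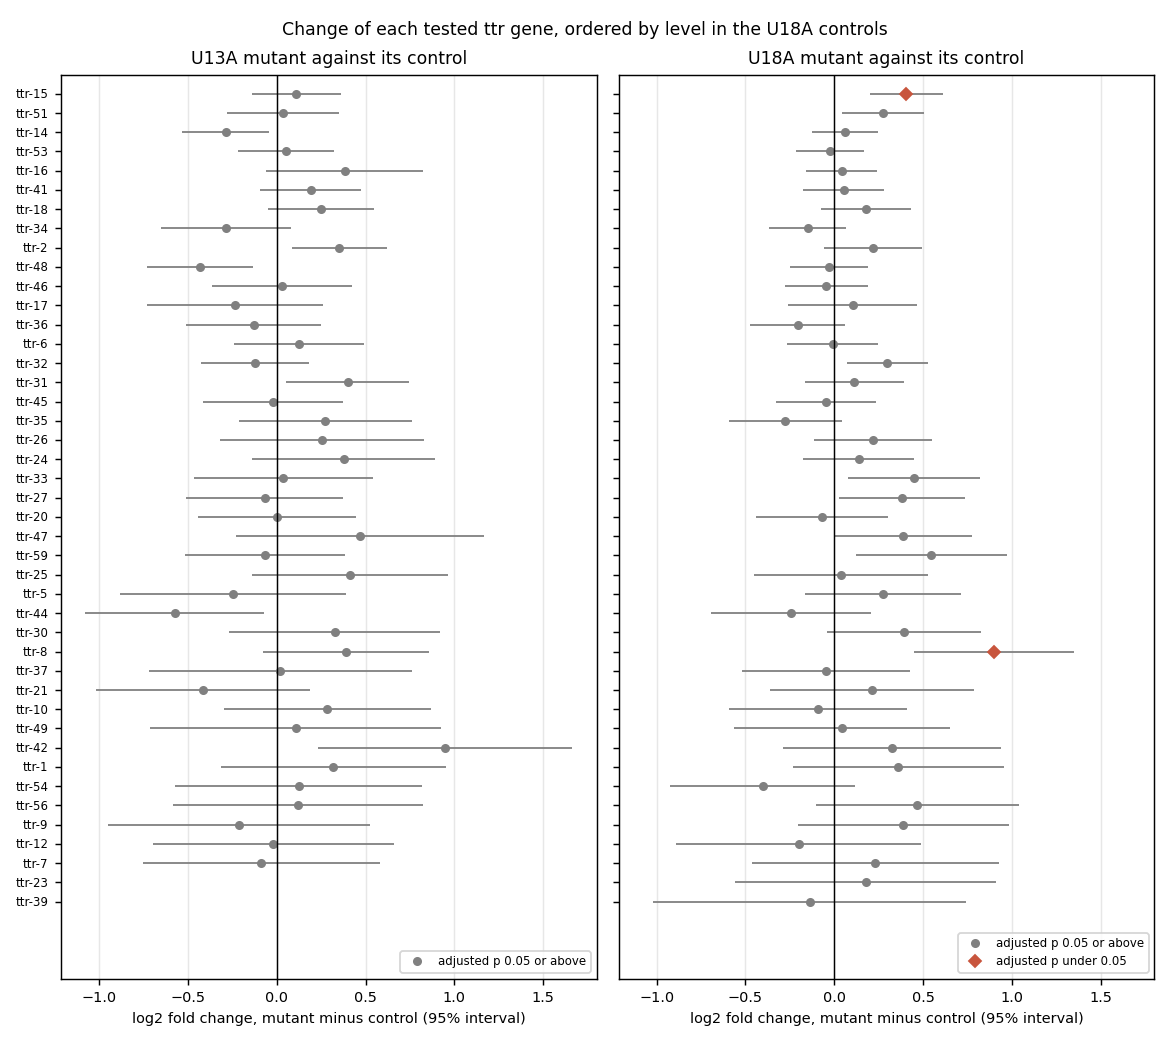
Log2 fold change of each tested ttr gene with its 95% interval (x axis), for the U13A contrast (left) and the U18A contrast (right), with genes ordered by their level in the U18A controls. Red diamonds mark an edgeR adjusted p under 0.05: there are none on the left, and ttr-8 and ttr-15 on the right.

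In the U18A contrast, 2 ttr genes rose and none passed in the other direction. ttr-8 rose 1.86-fold (95% interval 1.36 to 2.54) and ttr-15 rose 1.32-fold (95% interval 1.15 to 1.53). Of the 59 members 43 were tested. The share called, 4.65%, compares with 8.16% of all 12689 tested entries. In the upward direction 2.29% of all entries were called, and in the downward direction 5.88%. At an unadjusted p under 0.05 there were 7 members (16.3%, against 21.5% of all entries). The 16 untested members had at most 17 counts in any library.

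ttr-8 (R13A5.6, WBGene00020049, chromosome III, 7564500 to 7565347, minus strand) encodes a protein of 138 residues in 2 exons. Its U18A controls held 21, 21 and 28 counts and its mutants 36, 35 and 59, or 3.13, 3.26 and 2.95 CPM against 5.20, 5.95 and 6.14. The groups did not overlap, and the lowest mutant was well above the highest control. The log2 fold change was 0.90 (SE 0.21, edgeR adjusted p 0.0127). Without mutant C the adjusted p was 0.058, with a log2 fold change of 0.83, and with DESeq2 it was 0.0611, so the call depends on that library and on the tool. Its exons share 59 bases with lgc-12 on the opposite strand, which had 1 to 7 counts per library in this table. Among U13A libraries ttr-8 stood at 2.08, 2.46 and 1.51 CPM for controls against 3.05, 2.81 and 2.37 for mutants, which overlapped, and its estimate was 0.39 (SE 0.22, edgeR adjusted p 0.509).

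ttr-15 (WBGene00011561, plus strand) encodes a protein of 130 residues in 2 exons that overlap no other gene. Its U18A controls stood at 83.5, 81.5 and 99.4 CPM against 109, 108 and 132 for the mutants. The groups did not overlap, and control C came nearest to the mutants. The log2 fold change was 0.40 (SE 0.10, edgeR adjusted p 0.0149). The call was lost without mutant C (log2 fold change 0.29, edgeR adjusted p 0.0559), without control A (0.36, edgeR adjusted p 0.0907) and without control B (0.35, edgeR adjusted p 0.0966).

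Other members are given as values. For ttr-59 the U18A controls stood at 6.42, 9.16 and 11.6 CPM against 10.7, 13.3 and 16.0 for the mutants. These groups overlapped, since control C exceeded mutant A, and the log2 fold change was 0.55 (SE 0.20, edgeR adjusted p 0.115). ttr-59 passed without control C (edgeR adjusted p 0.0265) and without mutant A (edgeR adjusted p 0.0446), and had 0.36 without mutant C (edgeR adjusted p 0.423). Its neighbour ttr-30, 280 bases away on the same strand, had 0.39 (SE 0.21). ttr-56 had 0.47 (SE 0.27), or 0.24 without mutant C. The neuroprotective member ttr-33 stood at 9.26, 8.69 and 10.2 CPM for controls against 9.82, 12.2 and 16.0 for mutants, with mutant A inside the control range. Its estimate was 0.45 (SE 0.18, edgeR adjusted p 0.137). It passed without mutant A (0.60, edgeR adjusted p 0.0355) and had 0.21 without mutant C (edgeR adjusted p 0.636).

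On the lower side the estimates were -0.40 (SE 0.25, edgeR adjusted p 0.374) for ttr-54, -0.27 (SE 0.15) for ttr-35 and -0.24 (SE 0.22) for ttr-44. Their order depends on single libraries. ttr-44 had -0.46 without mutant C, where ttr-54 had -0.45, and ttr-44 had -0.07 without control B and -0.11 without mutant B, and -0.37 without control C. ttr-54 had -0.22 without control C. For ttr-14 the U18A controls stood at 117, 117 and 117 CPM against 105, 130 and 130 for the mutants, which lay on both sides of the controls, and its estimate was 0.06 (SE 0.09), or 0.00045 without mutant C. For ttr-53 the controls stood at 51.7, 51.8 and 51.1 CPM against 45.8, 53.9 and 52.3 for the mutants, again on both sides.

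**Figure D3:**
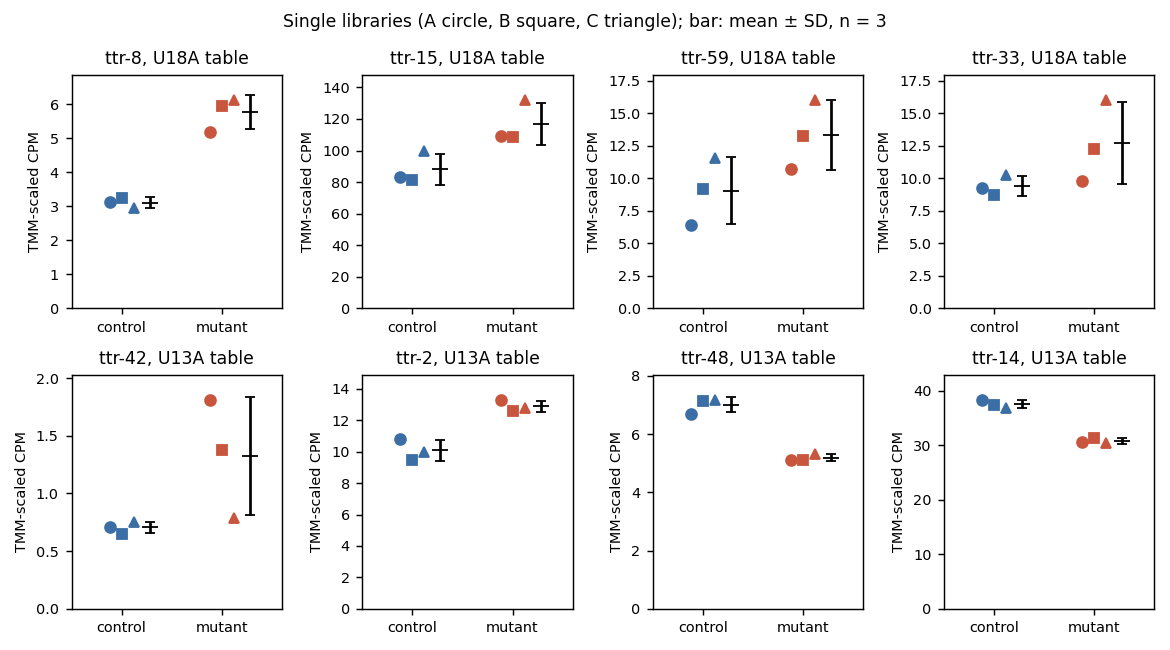
TMM-scaled CPM of 8 ttr genes in single libraries, with the U18A table in the upper row and the U13A table in the lower row. Symbols give the letter of the library and black bars the mean ± SD (n = 3). ttr-8 and ttr-15 in the U18A table are the genes that passed, and for ttr-59 and ttr-33 the groups overlap.

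Over the 43 tested members 28 log2 fold changes were above 0 and 15 below, or 65.1% above 0 against 51% of all tested entries. The median was 0.11, against 0.01 for all entries, and 0.03 without mutant C. Every mutant lay above every control for 6 of 43 members, against 12.3% of all entries, and below for 3 (6.98%, against 14.8%). The 95% interval lay within 1 of 0 for 40 members (93.0%, against 85.3% of all entries), and the exceptions were ttr-8, ttr-39 and ttr-56. The members' quartiles were -0.05 and 0.31, and those of all entries -0.18 and 0.16.

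**Figure D4:**
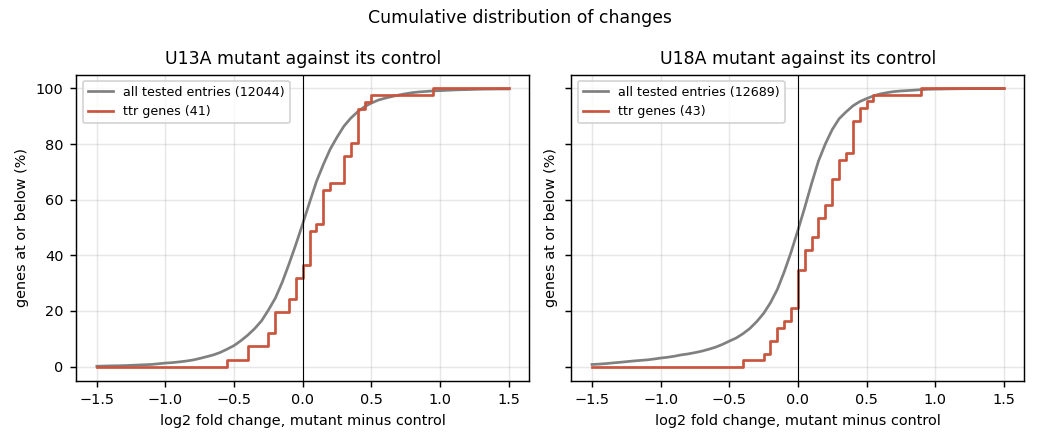
Share of genes (y axis, percent) at or below each log2 fold change (x axis), for tested ttr genes in red and all tested entries in grey, in the U13A contrast (left) and the U18A contrast (right). The median of the ttr genes is 0.05 on the left and 0.11 on the right, and few members lie beyond 0.5 in either direction.

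Markers of the tissues that a whole larva holds were counted beside these results. Of 6 hypodermis genes dpy-7, rol-6 and bli-1 were lower in the U18A mutant, and of 5 intestine genes vit-2 was higher. The other genes of both lists (elt-3, lin-26 and col-19, and elt-2, ges-1, ifb-2 and act-5) did not pass in that contrast. The median log2 fold change of the hypodermis list was -0.55 there. Summed levels ran from 577 to 688 CPM in the controls and 500 to 607 in the mutants for hypodermis, and from 2409 to 2674 and 3169 to 3562 for intestine. No marker of body wall muscle, pharynx, neurons, germline or sperm passed in the U18A contrast, and no marker of any list in the U13A contrast. The intestine median was 0.11 in the U18A contrast and 0.23 in the U13A contrast. In the latter, summed body wall muscle markers ran from 728 to 1116 CPM in the controls and from 1140 to 1167 in the mutants. The highest control thus came close to the lowest mutant, and the controls were widely spread. The median log2 fold change of these 4 genes was 0.24, and 0 of them passed. Marker values without control C are not given here. No marker was at 0. The calls fell on part of each list, so they are not shown to be changes of whole tissues. Whether these marker changes bear on the ttr values was not tested. In RNA from whole animals a change in cell number, in RNA per cell or in single genes cannot be told apart.

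TTR-52 acts in engulfment, so a list of 18 genes for the death and clearance of cells was examined, called engulfment genes below. The list is wider than the engulfment pathway itself, since it also holds crn-1 and wah-1. Of the 18 genes 17 were tested in each contrast. In the U13A contrast 0 passed in edgeR, where 1.55% of all entries did, with log2 fold changes from -0.46 to 0.22. The lowest is that of ced-12, part of the Rac activator in engulfing cells, and it rests on control C: its controls stood at 14.8, 15.0 and 27.3 CPM against 12.5, 13.8 and 14.4 for the mutants, and without that library it had -0.14. In the U18A contrast ced-10, which encodes a Rac GTPase that drives the engulfing cell's actin, rose and no other gene passed, or 5.88% of the 17, where 8.16% of all entries were called and 2.29% were called higher. Its controls stood at 63.6, 73.2 and 72.0 CPM against 79.2, 94.8 and 106.5 for the mutants, without overlap. The log2 fold change was 0.43 (SE 0.10, edgeR adjusted p 0.0134), and the call was lost without control A (0.37, adjusted p 0.0907), mutant B (0.42, adjusted p 0.0556) or mutant C (0.31, adjusted p 0.0592). The median over the list was 0.06, against 0.01 for all tested entries. The receptor gene ced-1 had -0.17 (SE 0.10), or -0.06 without mutant C, and nrf-5, which encodes a secreted lipid-binding protein that acts with TTR-52, had 0.28 (SE 0.11, edgeR adjusted p 0.126), or 0.18 without mutant C.

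The mutant effects were then set against each other in 1 fit of all 12 libraries. That fit used 1 estimate of spread per gene for both tables, although the tables differed in spread. The common biological coefficient of variation was 14.4% (U13A) and 9.03% (U18A) in the separate fits and 11.8% in the joint fit. The SEs and p-values of the difference rest on the shared estimate. Of 50 members tested 0 passed for the difference, where 1.96% of 14155 entries did (1.62% with the higher change in U13A and 0.332% with the lower). An unadjusted p under 0.05 was seen for 4 (8%, against 12.2% of all entries), ttr-14, ttr-32, ttr-35 and ttr-48, and DESeq2 also gave 0. For ttr-8, which was called in the U18A contrast alone, the U13A change minus the U18A change was -0.49 (SE 0.30, 95% interval -1.10 to 0.13, edgeR adjusted p 0.56). For ttr-15 it was -0.27 (SE 0.15, 95% interval -0.59 to 0.05, edgeR adjusted p 0.514). The calls in 1 contrast are therefore not shown to be specific to it. The smallest p was that of ttr-32, with a difference of -0.40 (SE 0.17, edgeR adjusted p 0.332). Among the 41 members tested in both separate contrasts, both estimates were above 0 for 18 and below 0 for 6, and they had opposite signs for 17.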

How the data were processed

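Whole-larva total RNA was depleted of ribosomal RNA and sequenced on an Illumina instrument, per the labels' protocols. The authors deposited whole-number counts of reads for each gene, in 1 table for each mutant with its control. The submitters' processing notes name cutadapt 1.9, Bowtie2 2.3.4.3, featureCounts and Subread 1.6.2. Genome build, annotation, use of strand and treatment of multiply mapping reads are not given in the sources used here.

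Each whole table was fitted with edgeR 4.0.16 in R 4.3.3: TMM scaling, the robust quasi-likelihood F test, and filterByExpr (min.count 10, min.total.count 15). P-values were 2-sided and Benjamini-Hochberg adjusted over all tested entries, with a threshold of 0.05. An SE is the absolute log2 fold change over the root of F, and 95% intervals use the fit's t distribution. Positions, exonic and coding lengths come from the WBcel235 annotation (Ensembl release 115), matched by symbol or else by RefSeq sequence name. The code was tested on simulated data. The members and lists were chosen with earlier results of these data known. Named were the 10 members highest in each control, those past the threshold, the 3 largest changes per contrast and direction, ttr-52 and ttr-33, and any further member was chosen after its values were seen. The alternatives tried were other count filters, RLE size factors, removing the 10 entries with most counts, a block for replicate letter, DESeq2 1.42.0, a joint fit of all 12 libraries, a threshold of 0.01, TPM computed from the deposited counts, and leaving out each library. Promoter motifs were not searched.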

Additional observations from a re-analysis of the deposited data

How the results depend on the processing

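In the U13A contrast and for the difference between contrasts, 0 ttr genes passed in any of the alternatives run, and 0 engulfment genes passed in the U13A contrast. In the U18A contrast the 2 called ttr genes became 1 with DESeq2, 0 at an adjusted p under 0.01 and 3 without the count filter (ttr-59 gained, adjusted p 0.016), and ran from 0 to 4 when each library was left out. The single engulfment call, ced-10, became 0 at an adjusted p under 0.01 and ran from 0 to 2 when each library was left out. Deviations of same-lettered libraries had correlations of -0.03 to 0.09 in the U13A table, against -0.16 to 0.20 for unlike letters. In the U18A table they had -0.01 to 0.12, against -0.11 to 0.06, and the highest was that of the C libraries. With 3 libraries a group such values cannot decide whether the letters pair libraries, so the main fits left the letter out. With the replicate letter as a block, 3 ttr genes (ttr-8, ttr-15 and ttr-59) and 2 engulfment genes passed in the U18A contrast, and all entries called went from 187 to 393 for U13A and from 1036 to 1429 for U18A. Of 26 gene values followed through 394 alternatives, 376 kept direction and side of the threshold, 11 lost a call and 5 gained one. The sign changed in 2, both for ttr-33 in the U13A contrast, which ran from -0.15 without control C (-0.03 without mutant B) to 0.19. The threshold of 0.01 reused the main fit, so no direction could change there and no uncalled gene could gain a call. Those alternatives are counted among the 394. Without the count filter all entries called rose to 543 (U13A), 1347 (U18A) and 473 (difference). A joint fit of all 12 libraries gave 431 (U13A) and 698 (U18A). The stricter threshold of 0.01 gave 54 (U13A), 507 (U18A) and 144 (difference). Leaving out a library gave 37 to 352 for U13A, 548 to 1109 for U18A and 176 to 342 for the difference. Ordering by TPM kept all 10 leading members in both controls. Members under about 10 counts are beyond what this depth can compare.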
